A study of Rattus norvegicus with 30 samples.

Results

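The 10 genes described here are feedback regulators of ERK signalling: the Sprouty genes Spry1, Spry2 and Spry4, the related Spred1, the dual-specificity phosphatase genes Dusp4, Dusp5 and Dusp6, the ETS activator genes Etv4 and Etv5, and the ETS repressor gene Erf. They were taken by symbol from a table of 17455 genes in which each of the 10 had a row, and all 10 passed the filter on low counts that left 12547 genes for testing. Of the 10, 5 were picked with results in view, namely Spry2, Spred1, Dusp5 and Erf for their changes with diet, and Etv5 for its change with genotype. The remaining 5, Spry1, Spry4, Dusp4, Dusp6 and Etv4, were added as members of the same families.

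RNA was sequenced from 30 libraries of rat dorsal hippocampus, the part of the hippocampus most tied to spatial memory. Rats labelled alzheimer were TgF344-AD, a transgenic line that carries mutated human APP under the mouse prion promoter, and were set against rats labelled wildtype. Each genotype was given a western diet or standard chow, and both sexes were used, which made 8 groups of 3 or 4 libraries in 2 cohorts. The design therefore asks how the transgenes, the diet and sex, singly and together, bear on hippocampal expression, and the ages of the rats are not used here.

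The groups were female alzheimer western (3 libraries), female alzheimer chow (4), female wildtype western (3), female wildtype chow (4), male alzheimer western (4), male alzheimer chow (4), male wildtype western (4) and male wildtype chow (4). Deposited totals ran between 13.9 and 31.4 M counts per library, where M stands for mega, and 17.8 M was the median. App, the rat counterpart of this transgene, whose row may take up reads of the human copy, averaged 3294 ± 76.3 CPM in the 15 alzheimer libraries, against 1672 ± 52.7 CPM in the 15 of wildtype rats (SD), and the genotypes did not overlap. CPM here means counts per M counts of a library size scaled by trimmed mean of M values, and is not corrected for transcript length, so levels are compared between libraries and never between genes. Markers of hippocampal neurons were present in every library: the summed level of 6 CA1 pyramidal markers lay between 1035 and 1589 CPM in alzheimer and between 1118 and 1527 CPM in wildtype libraries. The summed level of 8 choroid plexus markers, of tissue that lies beside the hippocampus, varied widely, between 3.70 and 19.7 CPM in western females and 5.08 and 37.5 CPM in chow females, and between 3.31 and 14.1 CPM in western males and 3.13 and 63.4 CPM in chow males. Its part in the results was not tested. The markers Otx2, Neu4, Kcnj13, Lct and Iyd were at 0 in at least 1 library. The labels do not say that each library came from a separate animal, so p-values measure the spread between libraries only. In bulk tissue, fewer cells of a type and less RNA per cell cannot be told apart.

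Growth factor receptors pass their signal through Ras, Raf and MEK to the ERK kinases, which in the hippocampus are switched on by neurotrophins and by synaptic activity and are needed for lasting synaptic change. Active ERK induces its own inhibitors. Sprouty and Spred proteins act between the receptor and Raf, dual-specificity phosphatases remove phosphate from ERK itself, and ETS factors such as Etv4 and Etv5 carry the signal to target genes. For this reason the mRNAs of these genes are often read as a record of recent ERK activity, a use that was not tested here.

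The stretch from 250 bases before to 50 bases after the gene start was found in RefSeq, build GRCr8, for 8 of the 10 members. Dusp4 and Etv4 had no entry. The sequences of Dusp5 (chr1:262543524-262543823, plus strand), Dusp6 (chr7:35979354-35979653, plus strand) and Spry4 (chr18:30702497-30702796, minus strand) are shown because these 3 genes are joined by the correlations between libraries reported further on. Each is written 5′ to 3′ on the strand of its gene, with matches on either strand in capitals to the following motifs: the CArG box bound by serum response factor, the cores TGAATG and TCAATG of the sites bound by the repressor Capicua, the ETS site CCGGAAG, the cAMP response element TGACGTCA and its half-site TGACG, and the AP-1 site TGANTCA.
Dusp5: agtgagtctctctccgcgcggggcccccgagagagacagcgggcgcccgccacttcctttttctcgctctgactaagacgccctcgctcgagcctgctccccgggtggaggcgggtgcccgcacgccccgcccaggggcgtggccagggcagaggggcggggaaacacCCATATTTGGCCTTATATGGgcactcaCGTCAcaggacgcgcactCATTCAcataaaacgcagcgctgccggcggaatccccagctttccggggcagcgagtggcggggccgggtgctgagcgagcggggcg
Dusp6: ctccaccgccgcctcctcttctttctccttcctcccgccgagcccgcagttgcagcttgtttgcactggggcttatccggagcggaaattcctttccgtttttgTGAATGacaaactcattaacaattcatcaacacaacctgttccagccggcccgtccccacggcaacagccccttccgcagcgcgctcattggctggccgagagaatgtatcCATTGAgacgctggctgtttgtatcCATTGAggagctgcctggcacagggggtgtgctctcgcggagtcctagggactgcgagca
Spry4: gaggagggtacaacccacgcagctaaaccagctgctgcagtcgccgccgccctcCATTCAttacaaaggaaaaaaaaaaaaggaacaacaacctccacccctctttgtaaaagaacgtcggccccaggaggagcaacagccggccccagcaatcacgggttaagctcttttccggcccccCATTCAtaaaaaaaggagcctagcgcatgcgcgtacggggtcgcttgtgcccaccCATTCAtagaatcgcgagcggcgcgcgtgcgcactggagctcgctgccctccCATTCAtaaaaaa
The Dusp5 stretch held 2 CArG boxes that lie side by side without overlap, starting at positions -82 and -72 from the gene start, with a half-site TGACG on the minus strand at -55 and a TGAATG core at -37. A CArG box was present in 1.64% of all 33469 RefSeq stretches of this length, and 2 or more in 0.0209%. The Spry4 stretch held 4 TGAATG cores, all on the minus strand, against 13.1% of stretches with at least 1 and 0.0747% with 4 or more. In the Dusp6 stretch TCAATG was matched at -35 and -10 and TGAATG at -146. At least 1 TCAATG was present in 9.61% of all stretches, and 2 or more in 0.714%. No match to CCGGAAG (8.75% of stretches), TGACGTCA (1.83%) or TGANTCA (7.33%) lay in these 3 stretches, while TGACG alone was present in 21.2% of all stretches. These matches describe letters in a short window and say nothing of whether a factor was bound. The stretches of Spry1, Spry2, Spred1, Etv5 and Erf held no CArG box and neither Capicua core. The CArG box and the Capicua cores were searched after the sequences had been read, so their shares are a description only.

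The fitted difference between the western diet and chow had opposite signs in females and males for all 10 genes. The share of all tested genes with opposite signs was not counted, and some of the 10 were picked on diet. The number is therefore a description and no result about the set. When some single libraries were left out, the sign changed for Dusp6 in males and for Spry1 in both sexes. In females Spry1 was 0.11, and -0.099 without female alzheimer western replicate 11. For 5 genes the gap between the sexes passed the threshold, as it did for 1.23% of all tested genes. Of these 5 genes, 4 were picked on diet. Spred1, Dusp4 and Dusp5 were higher on the western diet than on chow in females and lower in males, and Spry2 and Erf were lower in females and higher in males. The values of Spry2, Spred1, Dusp5 and Erf in any diet contrast are a description, since diet is what they were picked on, and carry no test. Averaged over both sexes these differences largely cancelled, with a log2 difference of western over chow of 0.05 for Spry2, 0.10 for Spred1, 0.13 for Dusp5 and -0.10 for Erf. The diet contrast called 0.00797% of all 12547 genes (1 gene) at an adjusted p under 0.05. Of the 6 members not picked on diet, none was called for diet by edgeR's quasi-likelihood test, 0 had an unadjusted p under 0.05, and none was called by DESeq2 or limma-voom.

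Spry2 encodes a Sprouty protein that dampens the signal from growth factor receptors to Ras and Raf. In females its lowest, median and highest levels were 81.1, 85.4 and 91.8 CPM on the western diet (n = 6) and 92.8, 96.2 and 107 CPM on chow (n = 8). Every western female lay below every chow female, but Spry2 was picked on diet and the share of all genes so separated was not counted. In males its levels were 85.5, 99.7 and 104 CPM on the western diet and 73.9, 80.5 and 91.3 CPM on chow (n = 8 each). The order was turned round, with 8 of 8 western males above the mean of the chow males of their genotype, although the lowest western male overlapped the chow range. The fitted log2 difference, western over chow, was -0.19 ± 0.043 (SE) in females and 0.28 ± 0.040 in males, and the female minus male difference of these was -0.47 ± 0.059.

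Spred1, whose protein brings the Ras inactivator neurofibromin to the membrane, ran the other way. Western females had 31.0, 33.8 and 35.6 CPM as lowest, median and highest, and chow females 24.3, 26.8 and 27.7 CPM, again with no overlap. Spred1 was also picked on diet, and the share of all genes so separated was not counted. Western males were tightly grouped, at 25.3, 26.97 and 27.7 CPM, and chow males were spread over 24.9, 28.9 and 37.5 CPM. The log2 difference was 0.34 ± 0.063 in females and -0.14 ± 0.060 in males. The value in males rests in part on male wildtype chow replicate 7, the library with the highest Spred1 of all 30, and was -0.083 without it. The female minus male difference of 0.49 ± 0.087 was 0.42 without the same library.

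Spry4, a Sprouty gene that is itself strongly induced by FGF signalling, had lowest, median and highest levels of 10.8, 12.6 and 15.1 CPM in western females and 6.92, 11.8 and 14.8 CPM in chow females. Western males had 8.67, 11.2 and 13.96 CPM and chow males 10.3, 11.2 and 14.5 CPM. All 6 western females lay above the mean of the chow females of their genotype, yet the ranges overlapped in both sexes. The diet-by-sex difference of 0.22 ± 0.132 on the log2 scale was not called (adjusted p = 0.465, edgeR's quasi-likelihood test). Spry1, the third Sprouty gene, had only 31 to 107 counts per library and a coefficient of variation of 19.2% between libraries of a group, against a median of 6.70% over all genes. Its difference of 0.22 ± 0.252 (adjusted p = 0.746) was smaller than its standard error, and it was 0.0044 without female alzheimer western replicate 11, the library with its highest level.

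**Figure D1:**
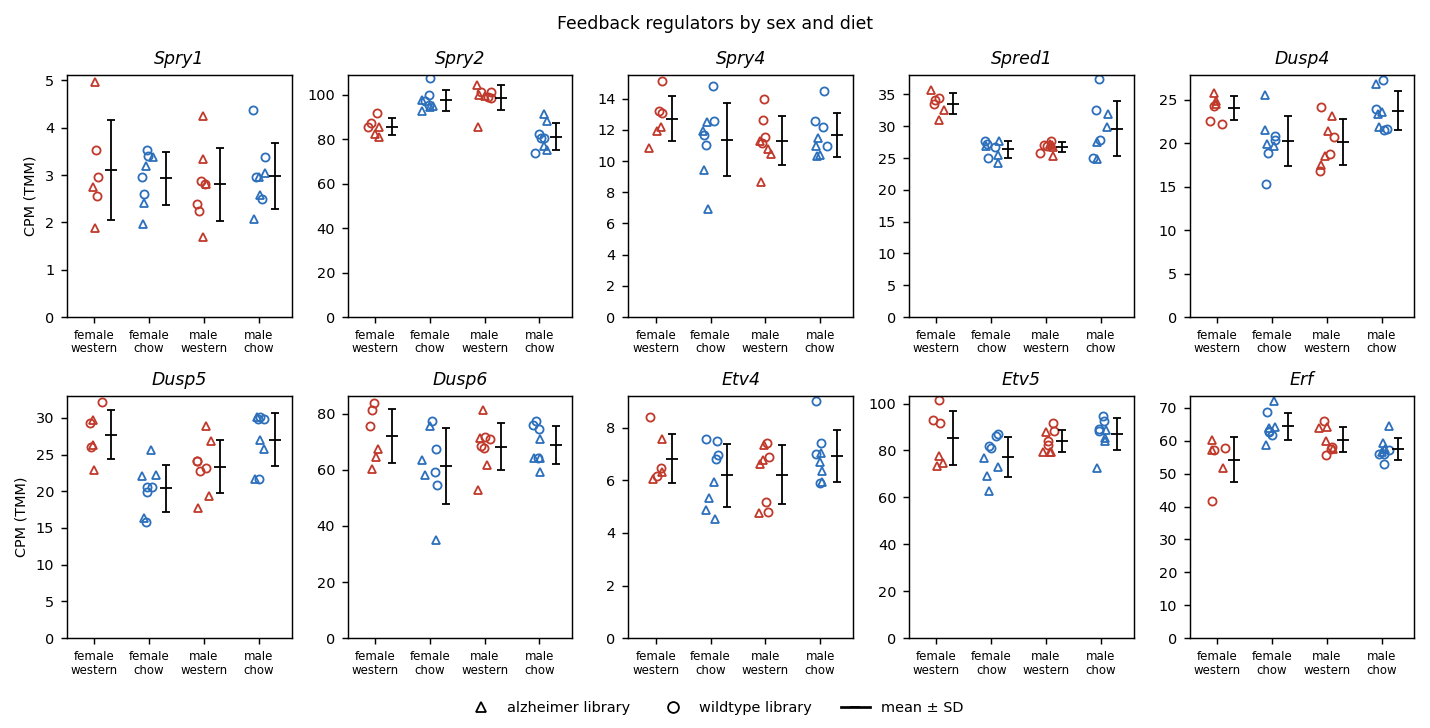
Level in CPM of each of the 10 genes in every library, in western and chow females and in western and chow males, with triangles for alzheimer and circles for wildtype libraries and bars for mean ± SD. Spry2 and Spred1, both picked on diet, separate the western from the chow females without overlap. The share of all genes that do so was not counted. The diet difference of Spry2, Spred1, Dusp4, Dusp5 and Erf runs the other way in males.

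Of the phosphatases, Dusp4 and Dusp6 were not picked on diet and could be tested for diet by sex, and Dusp4 was called. Dusp4 encodes a nuclear phosphatase that acts on ERK and also on other MAP kinases. Its lowest, median and highest levels were 22.2, 24.4 and 25.7 CPM in western females and 15.3, 20.1 and 25.5 CPM in chow females. In males they were 16.8, 19.8 and 24.2 CPM on the western diet and 21.6, 23.5 and 27.3 CPM on chow. Western females were higher, with 6 of 6 above the mean of their matched chow group, and western males lower, with 1 of 8 above it, while the ranges overlapped in both sexes. The log2 difference of western over chow was 0.27 ± 0.078 in females (adjusted p = 0.179, where 0.183% of all tested genes were called) and -0.24 ± 0.072 in males (adjusted p = 0.181, where 0.128% were called), neither of them called. The difference between the sexes, 0.50 ± 0.106, was called (adjusted p = 0.00997, edgeR's quasi-likelihood test). It stayed called with each library left out in turn, at 0.46 to 0.57 with adjusted p between 0.00152 and 0.0277. In cohort 1 alone it was 0.49 (adjusted p = 0.185) and in cohort 2 alone 0.48 (adjusted p = 0.283), so the size was alike in both but neither cohort passed the threshold by itself.

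Dusp5, a nuclear phosphatase specific for ERK, had the largest diet-by-sex difference of the 10. Western females had 22.9, 27.8 and 32.2 CPM as lowest, median and highest and chow females 15.9, 20.6 and 25.6 CPM. Western males had 17.7, 23.6 and 28.8 CPM and chow males 21.7, 28.4 and 30.1 CPM. All 6 western females lay above the mean of their matched chow group and 2 of 8 western males did, with overlapping ranges in both sexes. The log2 difference was 0.47 ± 0.098 in females and -0.21 ± 0.091 in males, and the difference between them 0.68 ± 0.134. The value in females differed between the cohorts, at 0.24 in cohort 1, where each genotype has 1 western female, and 0.61 in cohort 2.

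Dusp6, the cytoplasmic phosphatase specific for ERK, showed less of this. Its lowest, median and highest levels were 60.3, 71.6 and 84.0 CPM in western females and 35.0, 61.5 and 77.3 CPM in chow females, and 53.0, 69.8 and 81.4 CPM in western males and 59.2, 67.6 and 77.4 CPM in chow males. The groups overlapped broadly in both sexes. The diet-by-sex difference was 0.24 ± 0.137 (adjusted p = 0.425) and dropped to 0.14 without female alzheimer chow replicate 19, the library with the lowest Dusp6. That library also had the lowest Spry4 and Spred1, the highest Erf and the lowest summed level of 19 immediate early genes, 789 CPM against a median of 1019 CPM over all libraries.

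Erf encodes an ETS repressor that ERK keeps out of the nucleus when it is active. Western females had 41.7, 57.1 and 60.2 CPM as lowest, median and highest, and chow females 58.7, 63.4 and 72.2 CPM. Western males had 55.7, 59.1 and 66.0 CPM and chow males 53.0, 56.9 and 64.5 CPM. All 6 western females lay below the mean of their matched chow group and 7 of 8 western males above it, with ranges that overlapped in both sexes. The log2 difference was -0.26 ± 0.056 in females and 0.07 ± 0.052 in males, and the difference between them was -0.33 ± 0.076. The lowest library was female wildtype western replicate 12. Without it the value in females was -0.19 and the difference between the sexes -0.26. The value in males was 0.15 in cohort 2 and -0.01 in cohort 1, so that males showed a higher level in cohort 2 only.

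The activators Etv4 and Etv5, both of the PEA3 subfamily of ETS factors, were less affected. For Etv5 the difference between the sexes was 0.18 ± 0.057 (adjusted p = 0.115), from 0.13 ± 0.042 in females and -0.05 ± 0.039 in males, and 6 of 6 western females lay above the mean of their matched chow group. It passed the threshold only when male alzheimer chow replicate 3 was left out, at 0.21 with an adjusted p of 0.0484. For Etv4, with 82 to 168 counts per library, the difference was 0.28 ± 0.141 (adjusted p = 0.361).

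**Figure D2:**
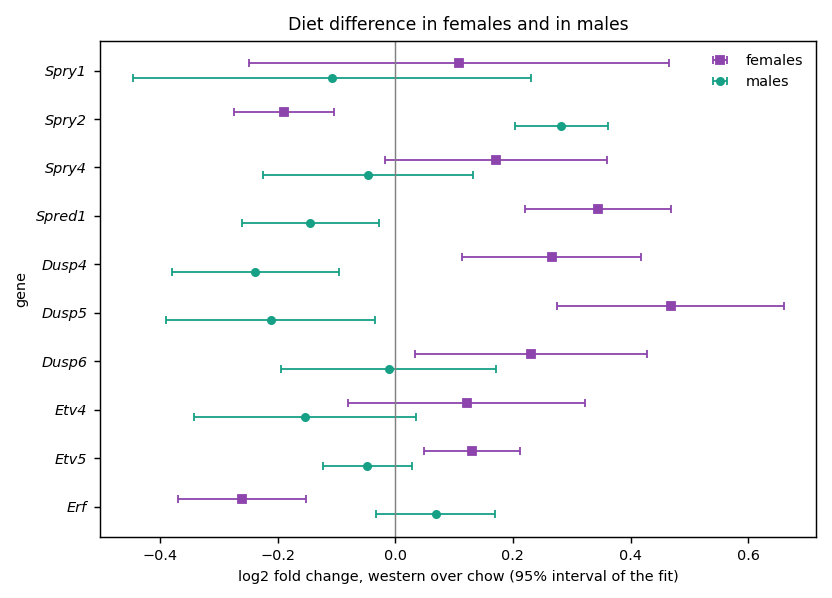
Log2 fold change, western over chow, of each gene in females (squares) and males (circles), with bars for the 95% interval of the fit. The intervals of the sexes do not overlap for Spry2, Spred1, Dusp4, Dusp5, Erf and Etv5, although Etv5 was not called for diet by sex. For Spry2, Spred1, Dusp5 and Erf, picked on diet, the intervals are a description and no test. In 8 of the 10 genes the value is higher in females.

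Counted together, 1 of the 6 members not picked on diet was called for diet by sex, Dusp4, where 1.23% of all tested genes were called (154 genes: 98 with the higher value in females and 56 with the lower). That number of 154 genes was 249 without replicate 8, 79 without replicate 12, 87 without replicate 15 and 93 without replicate 18. The 4 members picked on diet also passed the threshold, which is no evidence of its own. The median size of the diet-by-sex difference was 0.30 over the 10 members on the log2 scale, against 0.084 over all tested genes. The median with sign was 0.23 over the members and -0.0044 over all tested genes. Both medians include the 4 picked genes, so they are a description and no evidence about the set. The 6 members not picked on diet had differences from 0.18 (Etv5) to 0.50 (Dusp4). All 6 carry a test, and median-of-ratios factors, DESeq2 and limma-voom also called Dusp4 alone among them.

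For Spry2, Spred1, Dusp4, Dusp5 and Erf the female minus male difference kept its sign in both genotypes and both cohorts. All but Dusp4 were picked on diet in these same libraries. For them, likeness between parts of the libraries is a description and no replication. For Spry2 it was -0.43 ± 0.083 in alzheimer and -0.52 ± 0.083 in wildtype rats. For Spred1 it was 0.44 ± 0.122 in alzheimer and 0.54 ± 0.123 in wildtype rats, and for Dusp4 0.48 ± 0.148 in alzheimer and 0.53 ± 0.151 in wildtype rats. For Erf it was -0.25 ± 0.106 in alzheimer and -0.41 ± 0.108 in wildtype rats. Dusp5 differed most between the genotypes, with 0.50 ± 0.189 in alzheimer and 0.86 ± 0.189 in wildtype rats, though the difference of -0.37 ± 0.267 between these was within 2 standard errors. In cohort 2 alone the difference was -0.45 for Spry2, 0.51 for Spred1, 0.74 for Dusp5 and -0.37 for Erf. In cohort 1 alone, which has 1 western female per genotype, it was -0.49 for Spry2, 0.45 for Spred1, 0.52 for Dusp5 and -0.33 for Erf.

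Markers of several non-neuronal cell types had negative median values in the same contrast. The median diet-by-sex difference on the log2 scale was -0.24 over 8 oligodendrocyte markers (0 called), -0.24 over 6 endothelial markers (Cldn5 called lower), -0.17 over 8 microglial markers (P2ry12 called lower) and -0.12 over 8 astrocyte markers (Sox9 called lower). Of 6 markers of oligodendrocyte precursors, Olig2 was called higher, and their median was -0.09. The summed oligodendrocyte markers lay between 7981 and 13022 CPM in western females and between 10373 and 13864 CPM in chow females, and between 9317 and 14377 CPM in western males and between 8038 and 13153 CPM in chow males. The part of these cells in the values of Spry2, Spred1, Dusp4, Dusp5 and Erf was not tested.

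Genotype was the factor on which Etv5 was picked. Etv5 had 62.8, 77.7 and 88.9 CPM as lowest, median and highest in alzheimer libraries and 81.0, 88.4 and 101 CPM in wildtype libraries (n = 15 each). Alzheimer libraries were lower, 11 of 15 below every wildtype library, though the ranges overlapped. The mean was 77.6 ± 7.13 CPM in alzheimer libraries, against 88.8 ± 5.51 CPM in wildtype libraries (SD), and the log2 difference was -0.21 ± 0.028, given here as a description with no test. The gap was wider in females, where the 4 alzheimer chow libraries averaged 70.4 ± 5.89 CPM against 84.0 ± 3.01 CPM in the 4 wildtype chow libraries, than in males, where alzheimer chow averaged 82.7 ± 7.18 CPM against 91.1 ± 2.96 CPM in wildtype chow. The genotype-by-sex difference was -0.19 ± 0.057, again a description with no test, and this contrast called 0 genes.

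Of the 9 members not picked on genotype, Spry4 alone was called, where the genotype contrast called 8.03% of all tested genes (1007 genes: 519 higher and 488 lower in alzheimer). Spry4 had 6.92, 10.8 and 12.5 CPM as lowest, median and highest in alzheimer libraries and 10.9, 12.6 and 15.1 CPM in wildtype libraries. The ranges overlapped, with 8 of 15 alzheimer libraries below every wildtype library and 14 of 15 below the mean of their matched wildtype group. Spry4 fell by 0.25 ± 0.066 on the log2 scale (adjusted p = 0.0136, edgeR's quasi-likelihood test). The value lay between -0.28 and -0.22 with each library left out in turn, with adjusted p from 0.00503 to 0.0274. It was -0.26 in cohort 1 alone (adjusted p = 0.266) and -0.28 in cohort 2 alone (adjusted p = 0.0534), so neither cohort passed by itself. A share of 1 in 9 members is near the background of the contrast and is no result about the set.

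Dusp6 and Etv4 were lower in alzheimer libraries on average but were not called. Dusp6 averaged 63.4 ± 10.7 CPM in alzheimer libraries, against 71.4 ± 8.01 CPM in wildtype libraries (SD), a log2 difference of -0.18 ± 0.068 (adjusted p = 0.101). It was called at -0.22 without female alzheimer chow replicate 14 (adjusted p = 0.0295) and at -0.18 when no filter on low counts was applied (adjusted p = 0.0238). Etv4 averaged 6.14 ± 0.931 CPM in alzheimer libraries, against 6.89 ± 1.10 CPM in wildtype libraries, a difference of -0.16 ± 0.070 (adjusted p = 0.168). Spry1, Spry2, Spred1, Dusp4, Dusp5 and Erf had differences between -0.07 and 0.08, none of them called. That of Spry1 was -0.43 in cohort 2 alone and 0.34 in cohort 1 alone, neither of them called.

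**Figure D3:**
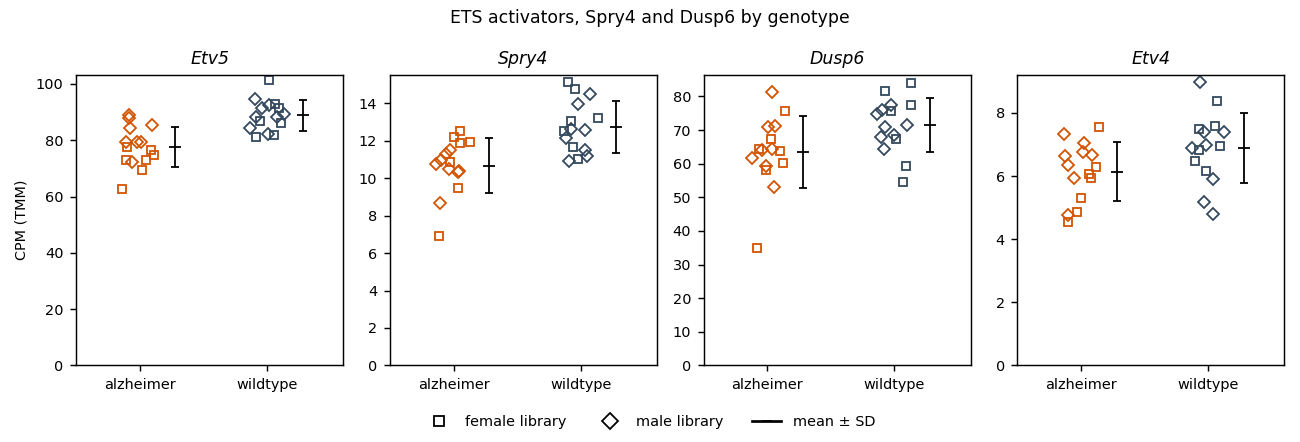
Level in CPM of Etv5, Spry4, Dusp6 and Etv4 in the 15 alzheimer and 15 wildtype libraries, with squares for females, diamonds for males and bars for mean ± SD. Etv5 and Spry4 sit lower in alzheimer libraries with some overlap, and 1 female alzheimer chow library is lowest for both Spry4 and Dusp6.

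Several cell markers were also lower in alzheimer libraries. Among 8 microglial markers 4 were called lower, with the summed level between 354.9 and 432.2 CPM in alzheimer and between 377.6 and 483.6 CPM in wildtype libraries. Among 8 pericyte and smooth muscle markers 3 were called lower, and among 6 endothelial markers 2. Of 6 CA1 pyramidal markers 2 were lower, and of 8 astrocyte markers Gfap was called higher and 2 lower. Their part in the values of Etv5 and Spry4 was not tested.

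For sex, averaged over diet and genotype, no member was called, where 0.837% of all tested genes were (105 genes). Among the 10 members 1 had an unadjusted p under 0.05, Etv5, with a female minus male difference of -0.09, and DESeq2 and limma-voom called none. For genotype by diet and genotype by sex no gene at all was called by edgeR's quasi-likelihood test, DESeq2 or limma-voom, which is 0% of the tested genes for both, and at an unadjusted p under 0.05 there were 446 and 528 genes. Among the members not picked on genotype, Etv4 alone passed the unadjusted threshold for genotype by diet, and none did for genotype by sex. Between cohorts, 2 minus 1, no member was called, where 0.0877% of all tested genes were (11 genes), 2 members had an unadjusted p under 0.05, and DESeq2 and limma-voom called no member.

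The members did not vary as 1 block between libraries of the same group. After the group and cohort means were taken out, 2 of the 45 pairs of members were correlated over the 30 libraries at an adjusted p under 0.05 (two-sided permutation test with 100000 resamples, Benjamini-Hochberg over 45 pairs). Dusp5 and Dusp6 had r = 0.64 (adjusted p = 0.000675) and Spearman's rho = 0.65 (adjusted p = 0.0036), and r was 0.59 without the 2 libraries farthest from the median of Dusp5, with 0.66 in cohort 2 and 0.63 in cohort 1. Spry4 and Dusp6 had r = 0.72 (adjusted p = 0.000675) by permutation, but rho was 0.51 (adjusted p = 0.0603), and r was 0.60 without the 2 farthest libraries, 0.79 in cohort 2 and 0.62 in cohort 1. The number of called pairs was 1 without replicate 19 and 4 without replicate 29. Spred1 and Erf had rho = -0.68 (adjusted p = 0.00225, permutation test), whereas their r of -0.41 was not called (adjusted p = 0.204). No other member was in a pair called by r. Residuals share the depth of their library, so these values are not free of technical sources, which were not tested.

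**Figure D4:**
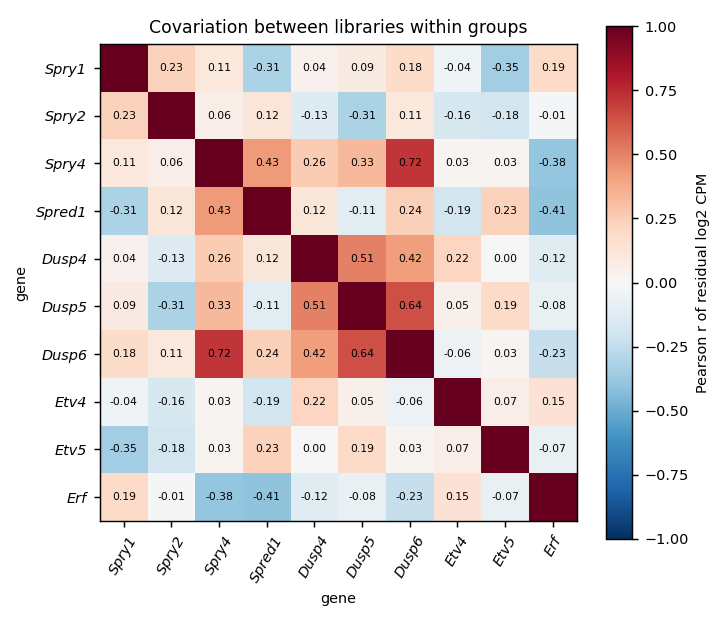
Pearson correlation of residual log2 CPM, after group and cohort means, for each pair of the 10 genes over 30 libraries. Spry4 with Dusp6 (0.72) and Dusp5 with Dusp6 (0.64) are the strongest pairs, and Etv4 and Etv5 are close to 0 with the phosphatases.

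Genes outside the set whose residuals were most like those of each member were ranked over 11052 candidates, as a description with no test. For Dusp6 they were Junb (r = 0.89), Dusp1 (0.87) and Arc (0.86), which are induced within minutes to hours of neuronal activity. For Spry4 the first was Egr1 (0.78), another such gene, followed by Esyt2 (0.76) and Trip11 (0.72). Dusp5 was most like Slc25a25 (0.72), Eif1b (0.70) and Mcl1 (0.70), and Spry2 most like the potassium channel gene Kcna4 (0.75) and Ier3 (0.72). Spred1 was most like Purg (0.82), Cyld (0.81) and Smc2 (0.79), Dusp4 most like Foxk2 (0.78), Ncbp1 (0.69) and Acvr1b (0.69), and Erf most like Cltb (0.80), Fbxo2 (0.79) and RGD1559909 (0.77). For Etv4 the first was Dbn1 (0.77), for Etv5 Mical2 (0.69) and for Spry1 Midn (0.76).

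Likeness to the immediate early genes graded the members. The median r with 19 immediate early genes was 0.60 for Dusp6, with 12 of 19 above 0.5, then 0.43 for Dusp5 and 0.40 for Spry4. It was 0.28 for Spry1, 0.26 for Dusp4, 0.24 for Spry2 and 0.14 for Spred1, and it was close to 0 for Etv5 (0.0066), Erf (-0.040) and Etv4 (-0.049). Dusp6, first in this order, had no called difference for diet by sex (0.24 ± 0.137). Dusp5, next in order, had the largest difference of the 10 but was picked on diet. Whether this order bears on the diet values was not tested.

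**Figure D5:**
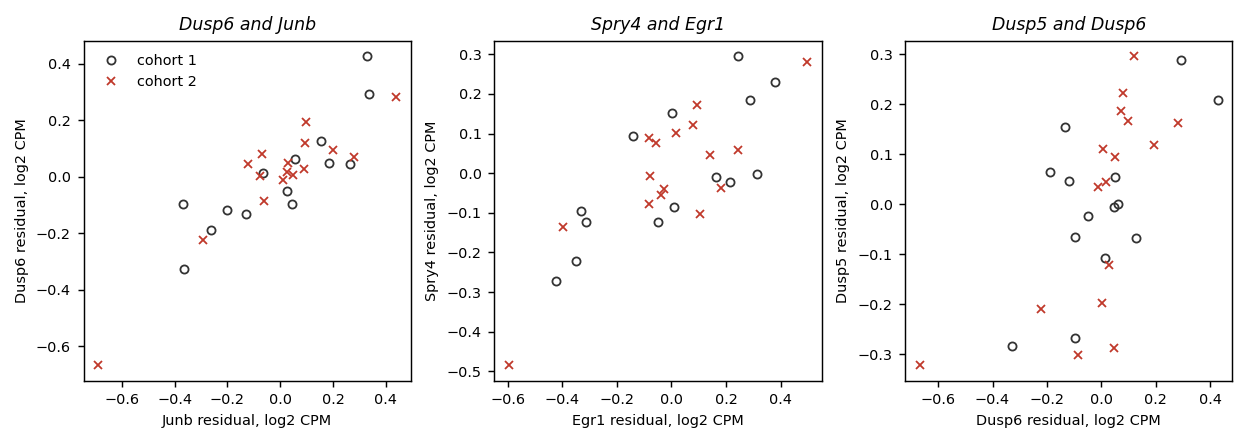
Residual log2 CPM after group and cohort means in each of 30 libraries, for Dusp6 against Junb, Spry4 against Egr1 and Dusp5 against Dusp6, with crosses for cohort 2 and circles for cohort 1. The point at the lower left of all 3 panels is female alzheimer chow replicate 19, and for Dusp5 with Dusp6 r was 0.59 without the 2 libraries farthest from the median of Dusp5.

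The rest of the pathway was read from 7 lists of 141 growth factors, receptors, adaptors, kinases, other inhibitors, nuclear targets and immediate early genes, of which 130 were tested. For diet none was called. For genotype 11 were called higher and 6 lower in alzheimer, 13.1% of the 130 against 8.03% of all tested genes. The lists were chosen with earlier results of these data known, so these shares are a description and no evidence about the pathway. Among 18 receptors, the hepatocyte growth factor receptor gene Met was higher by 0.39 ± 0.090 on the log2 scale (adjusted p = 0.00512) and the stem cell factor receptor gene Kit by 0.27 ± 0.033. Fgfr1 and Ntrk2 were each lower by 0.08. Of the 30 fits that each left out 1 library, 16 lost the call of Fgfr1 and 14 that of Ntrk2. Of 20 adaptors and Ras activators, Rasgrf2, Rasgrf1, Frs2 and Rasgrp1 were called higher, by 0.13, 0.11, 0.11 and 0.09, and the phosphatase gene Ptpn11 was lower (-0.11). Of 16 kinases, Rps6ka5 was higher by 0.10 and Map2k2, which encodes MEK2, lower (-0.07). The call of Rps6ka5 was lost in 22 of these 30 fits and that of Map2k2 in 5. Among inhibitors outside the set, Dusp7 was called higher (0.08) among 22 tested. Among nuclear targets Fosl2 was higher (0.29) and Ccnd1 lower (-0.15), the call of Ccnd1 being lost in 14 of the 30 fits. Jun was the only one of 19 immediate early genes called for genotype, at 0.18 ± 0.026. For sex, Ntrk2 was higher in females (0.11) and Rasal1 lower (-0.10), and each call was lost without at least 1 library.

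For diet by sex 6 of the 130 were called, 4.62% against 1.23% of all tested genes. The lists were chosen with earlier results of these data known, so these shares too are a description only. The called genes are named here after their values were seen. Errfi1, which encodes a feedback inhibitor of the EGF receptor, had a difference of 0.72 ± 0.097 (adjusted p = 4.40e-05, edgeR's quasi-likelihood test), the fourth smallest p of all genes. It averaged 67.2 ± 6.88 CPM in western females and 54.2 ± 6.47 CPM in chow females, and 55.3 ± 4.61 CPM in western males and 72.9 ± 7.81 CPM in chow males (SD). As for Dusp4 and Dusp5, the means of western females and chow males were above those of chow females and western males. Nr4a3 (0.45 ± 0.0996), Nr4a2 (0.42 ± 0.101) and the neuregulin gene Nrg2 (0.52 ± 0.137) had the same sign, and Ier3 (-1.08 ± 0.240) and Ier2 (-0.67 ± 0.173) the opposite one. Of the 30 fits that each left out 1 library, 21 lost the call of Nrg2, 17 that of Ier2 and 5 that of Nr4a2. The call of Ier3 was lost in 1, with an adjusted p of 0.0529 in the same test without replicate 12. Those of Errfi1 and Nr4a3 were kept in every such fit.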

How the data were processed

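Dorsal hippocampus RNA was enriched for polyadenylated transcripts, per the labels' protocols. The authors deposited raw read counts per gene for the 30 libraries (0 columns left unused, 0 rows without a gene name). Per the submitters' processing notes, cutadapt (no version stated) was used for trimming and STAR 2.7.0a for alignment. Which tool, strand setting, build and annotation produced the counts is not given in the sources used here.

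In R 4.3.3, edgeR 4.0.16 fitted a mean for each group of sex, genotype and diet plus a cohort term. The filter was filterByExpr (minimum count 10, minimum total 15), and library sizes were scaled by trimmed mean of M values (TMM). Contrasts used the two-sided quasi-likelihood F test, with factor contrasts weighting the groups equally and Benjamini-Hochberg adjustment over the 12547 genes tested, called at 0.05. Standard errors are the size of the log2 difference over the root of F. The fit was tested on simulated data. Depth was 13.9 to 31.4 M counts, and the common biological coefficient of variation was 6.27%.

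The members and lists were chosen with earlier results of these data known. The pick on diet names no contrast, so all diet contrasts, diet by sex included, were held to have been used for Spry2, Spred1, Dusp5 and Erf, more strictly than the written design. Genotype contrasts, genotype by sex included, were treated likewise for Etv5. Named were all members, called pathway genes for diet, genotype and sex (up to 4 per list and direction, by size), and the 3 genes most like each member, among those whose mean log2 CPM reached 1. Some genes that this rule names are not reported here. The CArG box and the 6-base Capicua cores were searched after the sequences had been read. Other settings tried were size factors by median of ratios, all genes with 1 count, only genes at 1 CPM in 8 libraries, DESeq2 1.42.0, limma-voom with quality weights (limma 3.58.1), a fit without cohort, each cohort by itself, and leaving out every library in turn.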

Additional observations from a re-analysis of the deposited data

Results flagged for a closer look

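Of 60 combinations of a gene with a group of 4 libraries, 3 held a library far from the other 3, and chance alone gives about 5% of such groups. Dusp5 was at 21.7 CPM in male wildtype chow replicate 26, against 29.8 to 30.1 CPM in the other 3 libraries. Dusp5 was at 15.9 CPM in female wildtype chow replicate 15, against 19.9 to 20.6 CPM in the others. Etv5 was at 87.8 CPM in male alzheimer western replicate 23, against 79.2 to 79.5 CPM in the others.

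The response to diet differed between the sexes for 5 members, as the log2 difference in females minus that in males: Spry2 at -0.47, Spred1 at 0.49, Dusp4 at 0.50, Dusp5 at 0.68 and Erf at -0.33. Dusp4 was not picked on diet and carries the test given above, and the other 4 are descriptions.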

How the results depend on the processing

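Median-of-ratios factors and the filter at 1 CPM moved no count of called genes by over 1.5 times. Counts with no filter were 242 for diet by sex, 254 for sex, 71 for diet in males, 60 in females, 3 in alzheimer rats and 113 for cohort. DESeq2 gave 269, 242, 56, 56, 3 and 104 in that order, and 3 for diet; limma-voom gave 205 for sex and 5 for cohort. Without the cohort term, diet in females had 11. Cohort 1 alone gave 19 for diet, 72 for genotype, 35 for diet by sex, 38 for diet in wildtype rats, 12 for genotype by diet and 9 for genotype by sex. Cohort 2 alone gave 0 for diet, 573 for genotype, 32 for diet by sex, 17 for sex, 0 for diet in males and 2 in females. With each library left out in turn, counts ran from 1 to 2 for diet, 817 to 1270 for genotype, 79 to 249 for diet by sex, 19 to 181 for sex, 9 to 53 for diet in males, 1 to 36 in females, 0 to 3 in alzheimer rats and 0 to 43 for cohort, and called member pairs from 1 to 4. Residuals after cohort alone gave 17 pairs. The cause of these shifts was not tested.

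Some values changed sign. Spry1 differed between the cohorts, with -0.43 in cohort 2 and 0.34 in cohort 1 for genotype, and -0.40 in cohort 2 and 0.19 in cohort 1 for diet in males. For Spry2 genotype was 0.00424 in cohort 1, and for Spred1 0.00446 in cohort 2. For Dusp6, diet in males was 0.0024 with limma-voom and 0.014 in cohort 1. With libraries left out, Dusp5 for genotype ran from -0.058 to 0.0049, Dusp6 for diet in males from -0.068 to 0.040, and Spry1 for diet from -0.19 to 0.0096 in males and -0.099 to 0.22 in females. Calls of Spry4 for genotype and of Dusp4 for diet by sex were kept by every setting that used all groups and both cohorts, with each library left out included. No paired analysis was possible because the replicate numbers are running numbers that no 2 groups share. Spry1 had the fewest counts of the members.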
